A study of Mus musculus with 22 samples.

Results

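Peptide and steroid receptor genes of the reproductive axis were examined in the hypothalamus of tumour-bearing and control mice. The list of 6 genes was chosen by symbol: Gnrh1, Kiss1, Tac2, Esr1, Pgr and Prlr. Of these, Gnrh1, Tac2, Esr1 and Pgr each had 1 probe set of their own on the array, and they are 4 of the 18820 genes measured. The annotated probe set of Kiss1 is shared with Golt1a, and Prlr had no probe set in the annotation used, so these 2 genes were not analysed here.

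The study followed hypothalamic gene expression while a transplanted tumour grew, in a series concerned with food intake. The 22 animals were C57BL/6 males, and each gave 1 array. Lewis lung carcinoma, a transplantable mouse lung tumour line, was inoculated into hind leg muscle at 6 weeks of age. Hypothalami were taken at tumour day 10 from 5 mice, at tumour day 14 from 7 mice and at tumour day 17 from 6 mice. The 4 control mice were killed at day 14, and the labels do not say whether they received an injection. Mice of every group were anaesthetised with ketamine and xylazine before the tissue was removed. The tumour groups of days 10 and 17 have no controls of their own day, so in those comparisons tumour and day cannot be told apart. The comparisons with control all use the same 4 control mice.

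The reproductive axis starts in the brain with neurons that make gonadotropin-releasing hormone (GnRH) and release it in pulses to the pituitary, which then secretes the hormones that drive the gonads. Neurons of the arcuate nucleus that make kisspeptin, neurokinin B and dynorphin drive these pulses. Gonadal steroids return to the hypothalamus and act through nuclear receptors, among them those for oestrogen and progesterone, and the progesterone receptor gene is itself a classical target of oestrogen.

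The values are log2 intensities, so a difference of 1 is a doubling. Differences between groups are taken between levels of the same probe set. The background measure and the percentiles only place the mean of a gene among those of other probe sets. All 4 genes lay above a background measure of 3.87 on all 22 arrays. Below it lay 95% of the values of 1182 probe sets for receptors of smell and of the vomeronasal organ, averaged over arrays. The mean of Gnrh1 was 5.36, at the 42.6th percentile of all gene means, and the mean of Tac2 was 8.29, at the 84.1st. Esr1 had a mean of 6.51 and Pgr a mean of 6.78, at percentiles 57.3 and 61.3. Array medians ran from 5.27 to 5.34 and correlations between arrays from 0.980 to 0.995. The 9 hypothalamic marker genes examined, among them Hcrt, Avp, Oxt and Trh, were above background on all 22 arrays. Of these 9 markers 6 had lower means on day 10, with a median log2 difference of -0.14, and 0 passed the test. On days 14 and 17, 5 of the 9 had lower means, with medians of -0.03 and -0.08. On each of these 2 days 1 of the 9 passed the test, and it was higher than control. The mean of the 9 markers per array ran from 7.77 to 8.05 in controls and from 7.63 to 7.80 on day 10. Over the 22 arrays that mean had a Pearson r of 0.57 with Esr1, 0.52 with Tac2, 0.42 with Pgr and 0.37 with Gnrh1, as a description, and its part in the day 10 values below was not tested. Markers of the thalamus, which borders the dissected tissue, were also detected, and 8 of 8 had lower means in tumour-bearing mice on each day. Of all genes, 49.7%, 52.0% and 53.7% had lower means on days 10, 14 and 17. The median log2 difference of the 8 markers from control was -0.56, -0.49 and -0.55 on these days, and 0 of the 8 passed the test on any day. The mean of these 8 markers was 7.33, 6.54, 7.83 and 6.47 in control replicates 1 to 4. It ran from 6.38 to 6.87 on day 10, from 6.40 to 7.38 on day 14 and from 6.37 to 7.09 on day 17. Control replicates 2 and 4 thus lay inside the range of each tumour group, and replicates 1 and 3 carried the higher control mean.

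None of the 4 genes passed the test in any comparison. The test was limma with Benjamini-Hochberg adjustment over all 18820 genes and a threshold of 0.05. Against control, 0 of 4 passed on day 10, where 0.106% of all genes did, 0 of 4 on day 14, where 0.218% did, and 0 of 4 on day 17, where 1.12% did. For the 3 tumour days averaged with equal weight, called the days together here, 0 of 4 passed and 0.643% of all genes did. At an unadjusted p below 0.05, 1 of the 4 genes, Pgr, was past the threshold in each of these comparisons, beside 10.7%, 10.5%, 16.6% and 14.8% of all genes. This held in the reported fit only. Under the other settings the limma unadjusted p of Pgr reached 0.0625, 0.151, 0.0724 and 0.0282 in the same order. With 1 array left out it reached 0.0397, 0.168, 0.109 and 0.0572. The lowest values relative to control belonged to Pgr and Gnrh1, and both are given in full below with their errors.

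**Figure D1:**
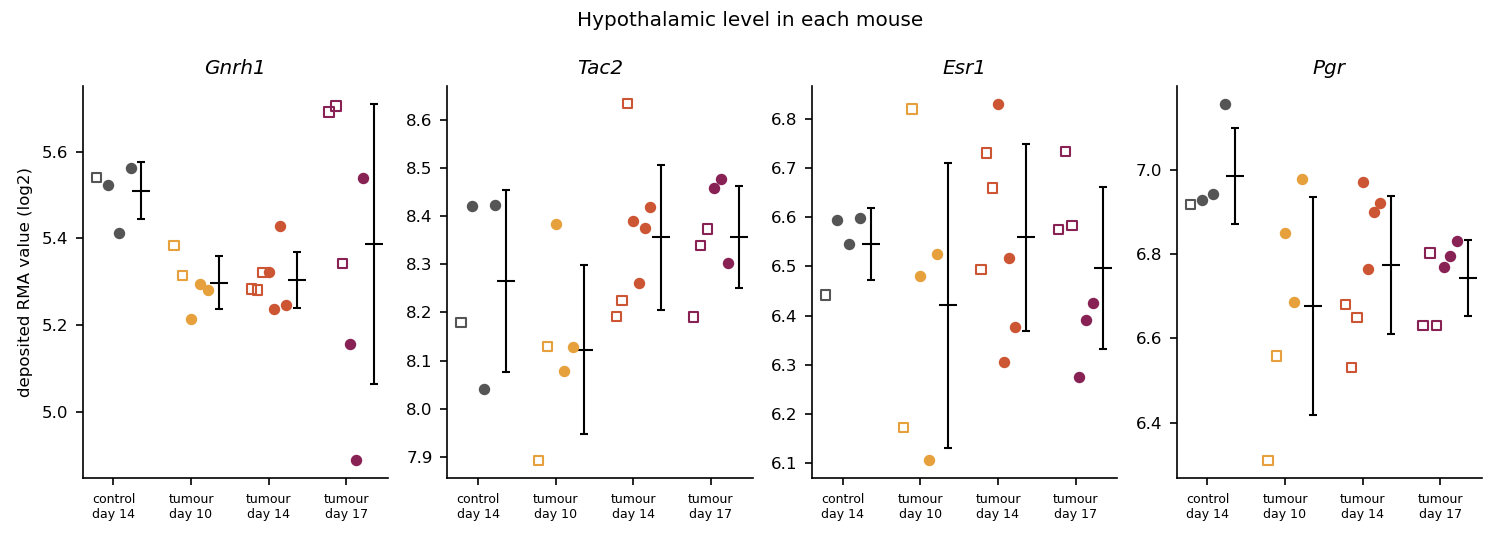
Log2 level of Gnrh1, Tac2, Esr1 and Pgr (vertical axes, 1 scale per gene) in each mouse of the 4 groups, with the group mean and SD as a bar at the right of each group. Open squares are the first 9 samples and filled circles the last 13 samples by accession number. For Pgr, 15 of 18 tumour-bearing mice lie below all 4 controls, a count that 2.88% of all genes reach. For Gnrh1 the day 17 mice spread from 4.89 to 5.70.

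Gnrh1 encodes the GnRH precursor (RefSeq GRCm38.p6, chr14:67745181-67749440). Its log2 level in the 4 controls was 5.54, 5.52, 5.41 and 5.56, with a mean of 5.51 ± 0.07 (SD, n = 4). In the 5 mice of day 10 it was 5.38, 5.31, 5.21, 5.30 and 5.28, with a mean of 5.30 ± 0.06 (SD, n = 5). All 5 day 10 mice were below every control, and the groups did not overlap. This lack of overlap, with the tumour-bearing mice lower, was seen in 2.24% of all genes. On day 14 the 7 mice had a lowest value of 5.24, a median of 5.28 and a highest value of 5.43, with a mean of 5.30 ± 0.06 (SD, n = 7). The highest mouse reached the control range, and the other 6 were below every control. On day 17 the 6 mice had a lowest value of 4.89, a median of 5.44 and a highest value of 5.70, with a mean of 5.39 ± 0.32 (SD, n = 6). Here the mice lay on both sides of the controls, with 3 below every control, 2 above every control and 1 between them. Of the 18 tumour-bearing mice, 14 were below every control, and 4.6% of all genes had at least that many.

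The Gnrh1 level differed from control by -0.21 ± 0.11 (SE, log2) on day 10, with a 95% interval of -0.45 to 0.02 and a limma adjusted p of 0.518. On day 14 the difference was -0.21 ± 0.11 (SE, log2, limma adjusted p = 0.505), and on day 17 it was -0.12 ± 0.11 (SE, log2, limma adjusted p = 0.603). Over the 3 days together it was -0.18 ± 0.09 (SE, log2, limma adjusted p = 0.372), a ratio of 0.882 with a 95% interval of 0.771 to 1.01. The 95% interval of each of these differences included 0. These errors pool the spread of the 4 groups, and the SD was 0.32 on day 17 but 0.06 to 0.07 in the others. Under the other settings the limma unadjusted p ran from 0.0034 to 0.155 on day 10 and from 0.0016 to 0.125 on day 14. The lowest limma adjusted p among them was 0.266 and 0.231. A whole-hypothalamus level does not tell apart fewer cells that express a gene and less RNA per cell, and this holds for every gene below. The day 17 value depended on single mice, with a difference of -0.02 without replicate 5, -0.08 without replicate 4 and -0.19 without replicate 2. Without the 4 arrays highest in thalamus markers it was -0.22. In the last 13 samples by accession number, which hold 3 controls, the day 17 difference was -0.31, while the 3 day 17 mice among the first 9 samples ranged from 5.34 to 5.70 beside a single control at 5.54. The labels do not call these runs of samples a batch, and whether they differ in handling was not tested. GnRH neurons lie mainly in the preoptic area. For septum, preoptic area and striatum together, 4 of 6 listed markers were measured, Six3, Ppp1r1b, Drd1 and Trpc4. Their summed levels were 23.2 to 23.8 in controls, 23.6 to 24.4 on day 10, 23.4 to 24.2 on day 14 and 23.1 to 23.8 on day 17. The list does not separate these regions, so the sums do not show how much preoptic area each array held. The part of tissue content in the Gnrh1 values was not tested.

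Tac2 encodes neurokinin B in the mouse, the arcuate peptide that starts the GnRH pulse (GRCm38.p6, chr10:127724478-127731768). The controls had log2 levels of 8.18, 8.42, 8.04 and 8.42, with a mean of 8.27 ± 0.19 (SD, n = 4). The 5 mice of day 10 had 7.89, 8.13, 8.38, 8.08 and 8.13, with a mean of 8.12 ± 0.18 (SD, n = 5). Only 1 of these mice was below every control, and the groups overlapped. Day 14 ran from 8.19 through a median of 8.37 to 8.63, with a mean of 8.36 ± 0.15 (SD, n = 7). Day 17 ran from 8.19 through a median of 8.36 to 8.48, with a mean of 8.36 ± 0.11 (SD, n = 6). Most mice of both later days lay inside the control range, with 1 mouse of day 14 and 2 of day 17 above every control.

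Against control, the Tac2 level differed by -0.14 ± 0.10 (SE, log2, limma adjusted p = 0.625) on day 10 and by 0.09 ± 0.09 (SE, log2) on both day 14 and day 17, with adjusted p of 0.765 and 0.667. The 95% interval reached from -0.35 to 0.06 on day 10, from -0.10 to 0.28 on day 14 and from -0.11 to 0.29 on day 17. Among tumour-bearing mice, the mean was 0.23 ± 0.09 (SE, log2) higher on day 14 than on day 10, with a 95% interval of 0.05 to 0.41. This had an unadjusted p of 0.0128 and a limma adjusted p of 0.578. Day 17 against day 10 gave 0.23 ± 0.09 (SE, log2, limma adjusted p = 0.509), and these 2 comparisons share the day 10 mice. Of the tumour-bearing mice, 3 of 7 on day 14 and 2 of 6 on day 17 were above every mouse of day 10. The direction against control on days 14 and 17 was reversed under 2 settings that used the thalamus markers. With the mean of these markers as a covariate the differences were -0.02 and -0.03. Without the 4 arrays highest in them, which include 2 controls, the differences were -0.04 and -0.03. Without control replicate 3 both differences were 0.02, and without control replicate 4 both were 0.14. All of these values lay inside the 95% intervals above. The part of the markers and of single controls in the direction was not tested. On day 10 the thalamus settings gave -0.27 and -0.30. The day 10 difference was also moved by single arrays, to -0.09 without control replicate 2 or 4 or day 10 replicate 1, and to -0.22 without control replicate 3. Over the 22 arrays the Tac2 level had a Pearson r of -0.43 with the thalamus marker mean and of -0.70 with the mean of 5 medial habenula markers, as descriptions of arrays that share their tissue dissection. The habenula mean also had an r of -0.50 with Pgr, -0.42 with Esr1 and 0.05 with Gnrh1. Of its markers, Gpr151 and Pou4f1 were above background on 0 of 22 arrays.

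Esr1 encodes oestrogen receptor alpha, the main nuclear receptor for oestrogen in the hypothalamus (GRCm38.p6, chr10:4611989-5005633). Its log2 level in controls was 6.44, 6.60, 6.55 and 6.60, with a mean of 6.55 ± 0.07 (SD, n = 4). On day 10 it was 6.17, 6.82, 6.48, 6.11 and 6.53, with a mean of 6.42 ± 0.29 (SD, n = 5). The day 10 mice lay on both sides of the controls, 2 below all of them and 1 above. The 7 mice of day 14 ran from 6.31 through a median of 6.52 to 6.83, with a mean of 6.56 ± 0.19 (SD, n = 7). The 6 mice of day 17 ran from 6.28 through a median of 6.50 to 6.73, with a mean of 6.50 ± 0.16 (SD, n = 6). Each tumour group spanned the control range.

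The Esr1 level differed from control by -0.12 ± 0.12 (SE, log2, limma adjusted p = 0.746) on day 10, by 0.01 ± 0.12 (adjusted p = 0.980) on day 14 and by -0.05 ± 0.12 (adjusted p = 0.878) on day 17. The 95% intervals were -0.38 to 0.13, -0.23 to 0.25 and -0.30 to 0.20. Each difference was smaller than the SD of its tumour group. Over the 3 days together the ratio to control was 0.964, with a 95% interval of 0.832 to 1.12. The day 17 difference was -0.22 in the last 13 samples by accession number (limma adjusted p = 0.440), -0.00026 with the thalamus marker mean in the fit and -0.0036 without day 17 replicate 4. The day 10 difference was -0.21 in those 13 samples, -0.08 with the thalamus marker mean in the fit, and -0.22, -0.06 and -0.05 without day 10 replicates 2, 1 and 4.

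Pgr encodes the progesterone receptor (GRCm38.p6, chr9:8898900-8968611). The log2 level in controls was 6.92, 6.93, 6.94 and 7.16, with a mean of 6.99 ± 0.11 (SD, n = 4). On day 10 it was 6.31, 6.56, 6.85, 6.69 and 6.98, with a mean of 6.68 ± 0.26 (SD, n = 5). Of these mice 4 were below every control, and the highest lay within the control range. On day 14 the values ran from 6.53 through a median of 6.76 to 6.97, with a mean of 6.77 ± 0.16 (SD, n = 7). Here 5 of 7 mice were below every control. On day 17 they ran from 6.63 through a median of 6.78 to 6.83, with a mean of 6.74 ± 0.09 (SD, n = 6). All 6 were below every control, and 3.3% of all genes had all 6 day 17 mice below every control. In all, 15 of 18 tumour-bearing mice were below every control, a count that 2.88% of all genes reached.

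The Pgr level was -0.31 ± 0.11 (SE, log2) relative to control on day 10, with a 95% interval of -0.53 to -0.09, an unadjusted p of 0.00849 and a limma adjusted p of 0.303. On day 14 the difference was -0.21 ± 0.10 (SE, log2) with an unadjusted p of 0.0453 and an adjusted p of 0.462, and on day 17 it was -0.24 ± 0.10 (SE, log2) with an unadjusted p of 0.0275 and an adjusted p of 0.243. Lower at an unadjusted p below 0.05 on each of the 3 days were 2.03% of all genes, which share the controls as Pgr does. Over the 3 days together the difference was -0.26 ± 0.09 (SE, log2, limma adjusted p = 0.187), a ratio of 0.838 with a 95% interval of 0.738 to 0.951. Within the last 13 samples by accession number it was -0.17 on day 10, -0.12 on day 14, -0.21 on day 17 and -0.17 over the days together. The tumour-bearing mice among the first 9 samples had Pgr levels of 6.31 to 6.80, and those among the last 13 had 6.69 to 6.98. The first 9 samples hold 1 control, at 6.92, which is above all 8 tumour-bearing mice of that run. Adjusted for the thalamus marker mean, the difference was -0.37, -0.27 and -0.30 on days 10, 14 and 17, as large as without it.

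**Figure D2:**
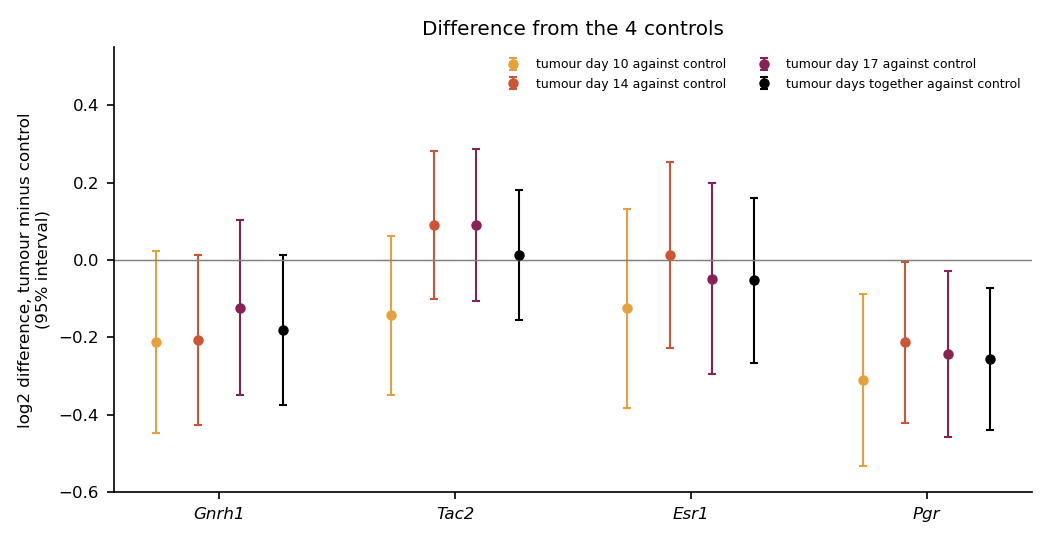
Log2 difference from the 4 controls (vertical axis) for Gnrh1, Tac2, Esr1 and Pgr on tumour days 10, 14 and 17 and over the days together, with 95% intervals from limma as bars. The intervals of Pgr lie below 0 before adjustment over all genes, and those of the other 3 genes include 0.

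Ordered by group mean, Pgr was highest in control, then day 14, day 17 and day 10, and Gnrh1 was highest in control, then day 17, day 14 and day 10. Tac2 was lowest on day 10, then in control, with day 14 and day 17 at the same mean. Esr1 was lowest on day 10 and highest on day 14, with a range of group means smaller than the SD of the day 10 mice. No neighbouring groups in these orders differed past the adjusted threshold, and the 95% interval of their difference included 0 except for Pgr between control and day 14. Between tumour days, 0 of 4 genes passed the limma test for day 14 against day 10, where 0.00531% of all genes did, and 0 of 4 for day 17 against day 10 and for day 17 against day 14, where 0% did. At an unadjusted p below 0.05, Tac2 alone of the 4 was past the threshold for day 14 and for day 17 against day 10, beside 7.13% and 8.3% of all genes, and 0 of 4 for day 17 against day 14, beside 4.17%. The joint test of any difference between the 4 groups passed 0 of 4, beside 0.335% of all genes, and Tac2 alone had an unadjusted p below 0.05, as did 11.8% of all genes. Its adjusted p was 0.422 for Tac2, 0.427 for Pgr, 0.631 for Gnrh1 and 0.860 for Esr1.

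Mice that were high in 1 of the 4 genes were not in general high in the others. Pearson r between pairs of the 4 genes over the 22 arrays ran from -0.18, for Gnrh1 and Tac2, to 0.39, for Tac2 and Pgr. The genes whose levels followed each of them most closely were sought among 13081 named genes above background. For Pgr they were Pias2, a SUMO ligase, with r = 0.86, Zmym6 with r = 0.84 and Aak1, a kinase of endocytosis, with r = 0.84. For Tac2 they were Marchf7, a ubiquitin ligase, with r = 0.84, the clock gene Per3 with r = 0.83 and Mc3r, a melanocortin receptor, with r = 0.83. Gnrh1 was followed by Pcdh8, a protocadherin, with r = 0.73, Fzr1 with r = 0.72 and Msantd2 with r = 0.71. Esr1 was followed by Fam160a2, Lhfpl4 and Tiam1, each with r = 0.74. After the group means were removed these 12 correlations, pooled over the 4 groups, were 0.69 to 0.83. The genes were picked on the same arrays, so these values are no separate check, and no group was examined alone. The arrays share dissection and normalization, and these are descriptions of 22 points selected as the highest of many.

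The wider pathway was described with 7 lists of genes. Counts at an unadjusted p below 0.05 in these lists stand beside the 10.7%, 10.5% and 16.6% of all genes past it in either direction on days 10, 14 and 17. The peptides and receptors upstream of GnRH were measured for 9 of 9 genes, and 0 passed the limma test on any day. At an unadjusted p below 0.05, 1 was higher and 1 lower on day 10, 2 were higher on day 14 and 1 was higher on day 17. The median difference of the list was 0.05, 0.07 and 0.07 on days 10, 14 and 17. Npvf, which encodes the gonadotropin-inhibitory RFamide peptide, differed from control by 0.26 ± 0.12, 0.32 ± 0.11 and 0.19 ± 0.11 (SE, log2) on days 10, 14 and 17, with a lowest adjusted p of 0.259 on single days. Oprk1, the dynorphin receptor, differed by -0.19 ± 0.08 (SE, log2, limma adjusted p = 0.410) on day 10. Of the genes of GnRH neuron development and puberty 15 of 16 were measured and 0 passed, with 2 lower at an unadjusted p below 0.05 on each day and 1 higher on day 14. The list medians were -0.03, -0.05 and -0.03. Nsmf, needed for GnRH neuron migration, differed by -0.25 ± 0.09, -0.22 ± 0.09 and -0.32 ± 0.09 (SE, log2), with a limma adjusted p of 0.0815 on day 17. Hs6st1, a heparan sulphate sulfotransferase, differed by -0.18 ± 0.08, -0.21 ± 0.07 and -0.13 ± 0.07 (SE, log2), with a lowest adjusted p of 0.285 on single days.

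Among other steroid receptors 11 of 12 were measured, and 1 passed on day 14 and over the days together, Paqr5, which encodes a membrane progesterone receptor. Its log2 level in controls was 5.11, 5.40, 5.17 and 5.52. On day 10 it was 5.56, 5.88, 5.56, 5.65 and 5.68, on day 14 it ran from 5.41 through a median of 5.90 to 6.07, and on day 17 from 5.58 through 5.69 to 5.84. All mice of days 10 and 17 and 6 of 7 of day 14 were above every control. Every mouse was above every control in 2.21% of all genes on day 10 and in 1.66% on day 17. On day 14 the Paqr5 level rose by 0.55 ± 0.10 on the log2 scale (SE, 7 mice against 4, limma adjusted p = 0.0194), and over the days together it rose by 0.44 ± 0.09 (SE, log2, limma adjusted p = 0.0300). On days 10 and 17 it differed by 0.37 ± 0.11 and 0.39 ± 0.11 (SE, log2), with adjusted p of 0.243 and 0.0754. The day 14 call was lost without control replicates 1, 2 or 3 or day 14 replicate 5, with an adjusted p of up to 0.168, and the call over the days together was lost without control replicates 1, 2 or 3. The median difference of the list was -0.05, -0.06 and -0.06 on the 3 days, and the median of all genes was 0.00, 0.00 and -0.01.

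Of the steroid receptor coregulators 8 of 10 were measured, and 1 passed on day 17, Fkbp4, which encodes a chaperone partner of the progesterone and androgen receptors. The controls had log2 levels of 8.59, 8.42, 8.42 and 8.52, and the 5 mice of day 10 had 8.52, 8.30, 8.42, 8.33 and 8.57. Day 14 ran from 8.04 through 8.19 to 8.47 and day 17 from 7.99 through 8.14 to 8.29. All 6 mice of day 17 and 6 of 7 of day 14 were below every control, while day 10 overlapped with the controls. All 6 day 17 mice were below every control in 3.3% of all genes. Fkbp4 fell by 0.34 on the log2 scale (difference -0.34 ± 0.08, SE, n = 6 and 4, limma adjusted p = 0.0417) on day 17, and differed by -0.28 ± 0.08 (SE, log2, adjusted p = 0.166) on day 14. Leaving out 1 array at a time ended this call in 10 of 22 cases, namely without any 1 of the 4 controls, without day 17 replicates 1 to 5 or without day 14 replicate 7, with an adjusted p of up to 0.144. All 8 coregulators had lower means on day 17, as did 53.7% of all genes, and the list medians were -0.04, -0.03 and -0.07 on the 3 days.

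The oestrogen-responsive genes were measured for 8 of 8, and 1 passed on day 17 and over the days together, Greb1, an oestrogen-induced cofactor of the oestrogen receptor. The controls had log2 levels of 5.08, 5.15, 4.95 and 4.73, and the 5 mice of day 10 had 4.60, 4.75, 4.61, 4.54 and 4.76. Day 14 ran from 4.51 through 4.59 to 4.92, and day 17 from 4.38 through 4.55 to 4.65. All 6 mice of day 17 were below every control, as were 3 of 5 on day 10 and 4 of 7 on day 14. In 3.3% of all genes all 6 day 17 mice were below every control. Greb1 fell by 0.45 on the log2 scale (difference -0.45 ± 0.09, SE, n = 6 and 4, limma adjusted p = 0.0193) on day 17 and by 0.36 (difference -0.36 ± 0.08, SE, adjusted p = 0.0371) over the days together. It differed by -0.33 ± 0.09 and -0.29 ± 0.09 (SE, log2) on days 10 and 14. The call of day 17 was lost without control replicates 1, 2 or 3, with an adjusted p of up to 0.0972. The call over the days together was lost without the same controls, day 10 replicate 4 or day 17 replicate 4. Without the 4 arrays highest in thalamus markers, which leaves 2 controls, the adjusted p was 0.980 for Paqr5 on day 14, 0.418 for Fkbp4 on day 17 and 0.349 for Greb1 on day 17. Adjusted for the mean of those markers it was 0.0860, 0.0700 and 0.0635, in the last 13 samples alone 0.507, 0.208 and 0.175, and in fits restricted to each pair of groups 0.187, 0.0609 and 0.0505, in the same order. The direction of each was kept. The call of Fkbp4 was also lost with a second quantile normalization, the pituitary marker mean or the meningeal marker mean in the fit, with adjusted p of 0.0604, 0.0764 and 0.0516. The calls of Paqr5 and Greb1 over the days together were lost under the first 3 of the settings above and with the meningeal marker mean in the fit, where the adjusted p was 0.0542 and 0.0653. The median difference of the oestrogen-responsive list was -0.02, -0.15 and -0.22 on the 3 days. Lower means were seen for 4, 7 and 7 of its 8 genes, beside 49.7%, 52.0% and 53.7% of all genes. At an unadjusted p below 0.05, 2 of the 8 were lower on day 10 and 2 on day 14. On day 17, 3 were lower and 1 higher.

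**Figure D3:**
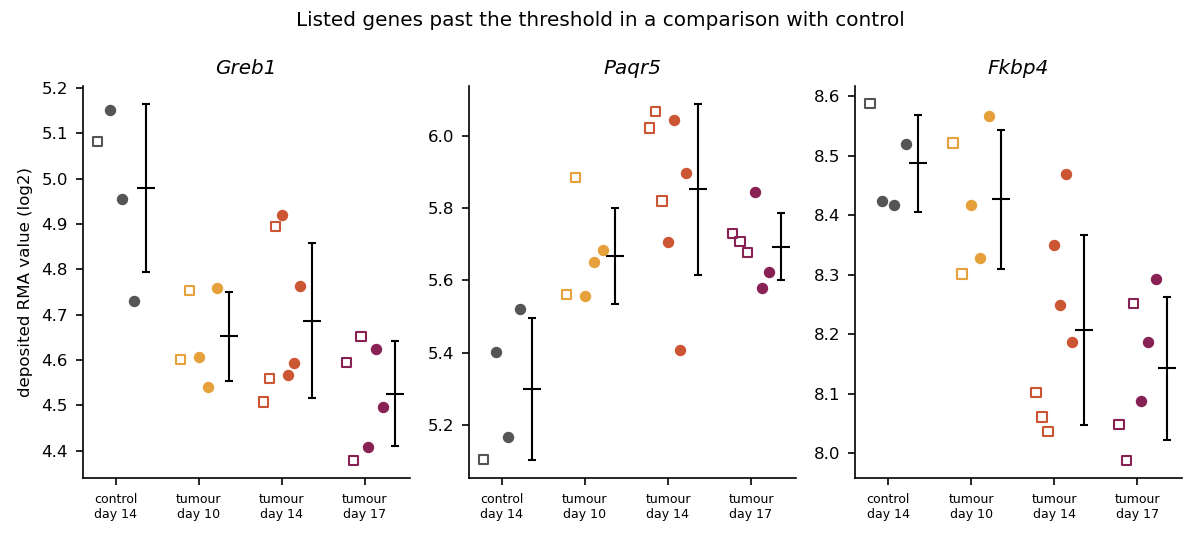
Log2 level of Greb1, Paqr5 and Fkbp4 (vertical axes, 1 scale per gene) in each mouse of the 4 groups, with the group mean and SD as a bar. Open squares are the first 9 samples and filled circles the last 13 samples by accession number. On day 17 all 6 mice are below every control for Greb1 and Fkbp4 and above every control for Paqr5. Of all genes, 3.3% have all 6 below and 1.66% all 6 above every control.

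The genes of steroid synthesis and breakdown were measured for 15 of 19, of which 8 had a mean above background, and 0 passed the limma test on any day. At an unadjusted p below 0.05, 1 was higher on day 10, 1 higher and 2 lower on day 14 and 1 lower on day 17. The list medians were 0.03, -0.04 and -0.05. Hsd17b12, a hydroxysteroid and fatty acyl dehydrogenase, differed by -0.14 ± 0.05 (SE, log2, limma adjusted p = 0.156) on day 17. Hsd11b1, which regenerates active glucocorticoid, differed by -0.20 ± 0.08 (SE, log2, limma adjusted p = 0.365) on day 14. Prolactin signalling and its dopamine brake were measured for 11 of 11 genes, and 0 passed on any day, with 2 higher at an unadjusted p below 0.05 on day 10 and none on days 14 and 17. The list medians were 0.09, -0.02 and 0.05. Both of those 2 were inhibitors of cytokine receptor signalling that prolactin induces, Socs2 at 0.24 ± 0.10 and Cish at 0.23 ± 0.10 (SE, log2), with limma adjusted p of 0.392 and 0.443. Prl itself was above background on 2 of 22 arrays. Pituitary markers varied between arrays, with a summed level of 7 of 8 listed genes from 24.6 to 29.7 in controls, 25.9 to 31.0 on day 10, 26.0 to 32.7 on day 14 and 25.9 to 33.9 on day 17, and Prl is a member of both lists. Their part in the prolactin values was not tested.

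**Figure D4:**
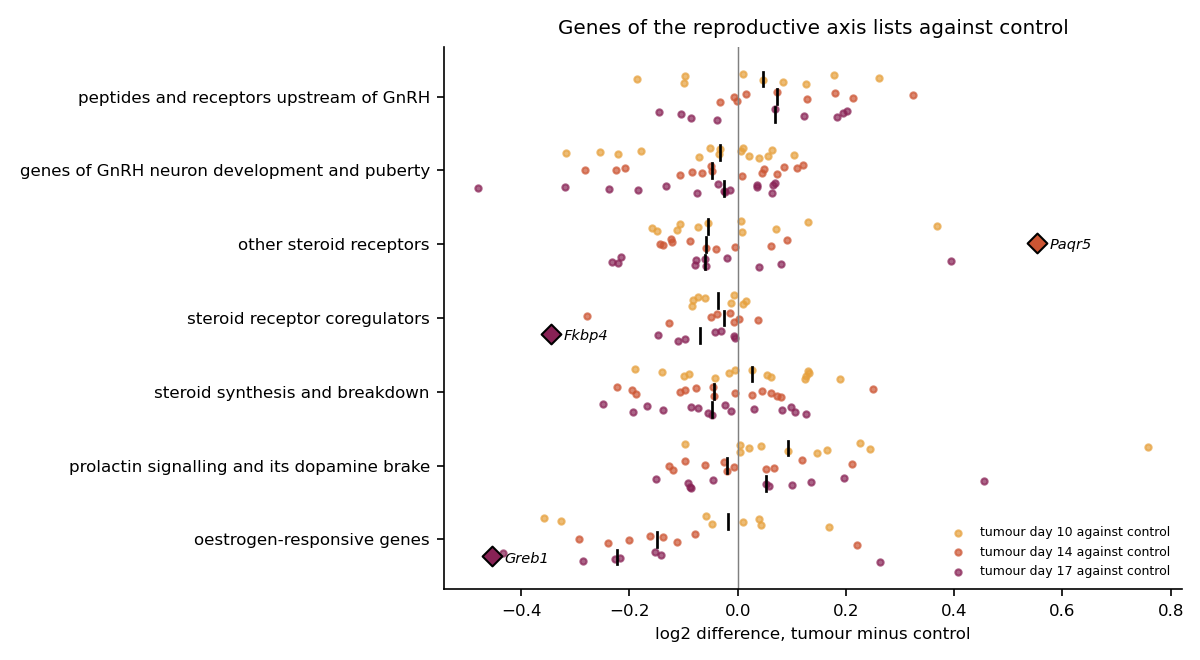
Log2 difference from control (horizontal axis) of each measured gene of the 7 lists (rows), with 1 colour per tumour day and a black line at each median. Diamonds mark genes past the threshold: Paqr5 on day 14, and Fkbp4 and Greb1 on day 17.

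The window around a start site of Pgr and of Greb1 is shown because both genes are known as oestrogen targets. Greb1 passed the test on day 17, and Pgr passed it in no comparison above. Each window holds 250 bases before and 50 bases after a transcript start, from RefSeq GRCm38.p6, written 5′ to 3′ on the strand of the gene. The Pgr window is chr9:8899583-8899882 on the plus strand, and the Greb1 window is chr12:16800837-16801136 on the minus strand. The Pgr window lies inside the span of the gene given above and does not cover the start of that span. Capitals mark matches on either strand to AGGTCA, a half-site for the oestrogen receptor, to its palindrome (GGTCA, any 3 bases, TGACC), or to GGGCGG, a GC box.
Pgr: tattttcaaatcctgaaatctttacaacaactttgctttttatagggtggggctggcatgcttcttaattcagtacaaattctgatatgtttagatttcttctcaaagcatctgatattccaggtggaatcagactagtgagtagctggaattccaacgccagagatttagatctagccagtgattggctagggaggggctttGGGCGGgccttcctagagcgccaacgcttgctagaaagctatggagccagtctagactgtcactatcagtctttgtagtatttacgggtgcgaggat
Greb1: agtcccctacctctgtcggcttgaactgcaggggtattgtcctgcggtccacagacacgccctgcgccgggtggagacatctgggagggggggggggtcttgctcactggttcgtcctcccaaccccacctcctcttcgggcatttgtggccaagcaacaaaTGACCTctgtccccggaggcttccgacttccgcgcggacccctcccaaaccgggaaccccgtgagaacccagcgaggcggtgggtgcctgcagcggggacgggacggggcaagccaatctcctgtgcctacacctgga
In the Pgr window the capitals are 1 GC box, at bases -47 to -42 from the start, and neither oestrogen motif was found. The Greb1 window held 1 half-site on the reverse strand, at bases -88 to -83, written TGACCT on the strand shown, and no palindrome. Of 32851 mouse windows of the same length, 16.3% held AGGTCA, 0.07% the palindrome and 35.7% GGGCGG. A match describes letters only, and the absence of one concerns this window and says nothing of the receptor elsewhere. Greb1 has a second window, at chr12:16757190-16757489, which held none of these motifs and is not shown. The window of Tac2 and the 2 windows of Esr1 held none of them either, and 0 windows were available for Gnrh1.

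The differences of Pgr and Gnrh1 from control were below 0 under all alternative settings, 40 per day and 39 for the days together. Many of these settings cannot change a difference, so this count is not a measure of stability. On day 17 the difference ran from -0.31 to -0.02 for Gnrh1 and from -0.30 to -0.19 for Pgr.

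**Figure D5:**
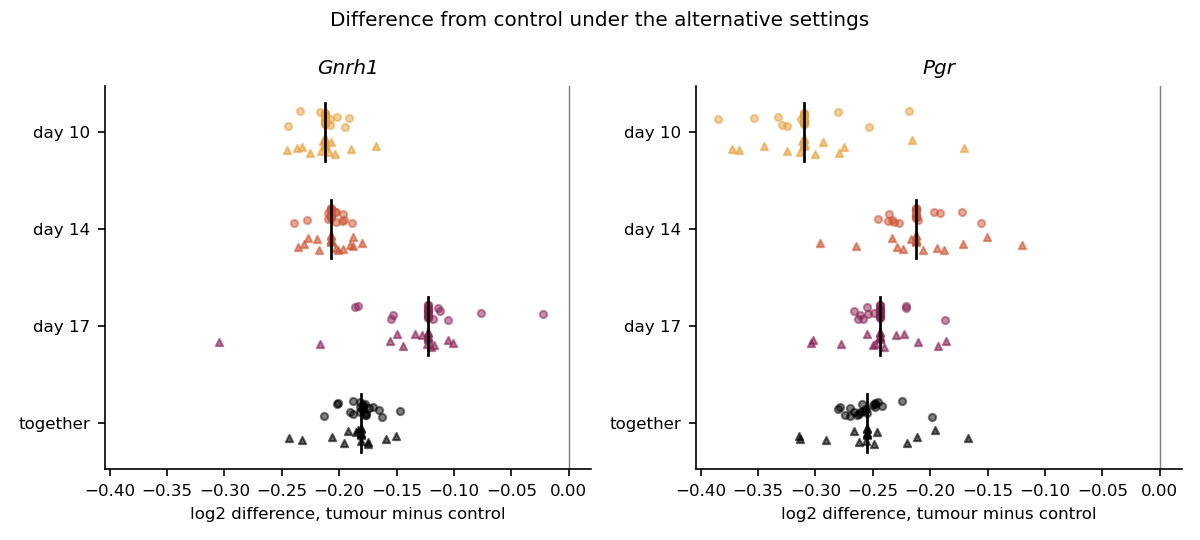
Log2 difference from control (horizontal axis) of Gnrh1 and Pgr on each tumour day and over the days together, under other settings. Circles leave out 1 of the 22 arrays each, triangles are the other settings (18 per day, 17 for the days together), and the black line is the reported value. All points lie below 0, and those of settings that cannot move a difference lie on the black line.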

How the data were processed

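Hypothalamic RNA of 22 mice was measured on 1 array each. The authors deposited log2 intensities made with RMA (robust multi-array average), according to the submitters' processing notes. RMA corrects background, normalizes arrays to each other and combines probes into probe sets. Its version, the genome build and the annotation are not given in the sources used here. Of 35556 probe sets in the table, the platform annotation pairs 21218 with 1 gene and 1881 with several genes, and it leaves 12457 unnamed. The probe set with the highest mean stood for each of 18820 genes. All genes were kept whatever their level.

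The 22 arrays entered 1 fit of the 4 group means (limma 3.58.1, R 4.3.3, lmFit and eBayes, 18 residual degrees of freedom). Tests were two-sided, and genes past the threshold had a Benjamini-Hochberg adjusted p below 0.05 over all genes. SD is the spread between mice and SE the error of the fit. Per the labels, replicates are separate mice. The number of arrays limits the precision. The fit was tested on simulated data.

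The members, gene lists and marker lists were chosen with earlier results of these data known. Named were the members, in each list up to 4 genes past the threshold or, where none passed, the 2 of smallest unadjusted p, and the 3 genes of highest Pearson r with each member, passing over predicted genes, small RNAs and receptors of smell. Alternative settings changed variance moderation, array weights, scaling, the filter, the choice of probe set, the arrays fitted and the threshold, added marker means, the replicate number or the run of accessions as terms, and left out each array. Covariates for pituitary and meningeal markers were chosen after seeing the data.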

Additional observations from a re-analysis of the deposited data

Results flagged for a closer look

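The Pgr level of control replicate 4 stood apart from its group. It was 7.16 on the log2 scale, and the nearest of the other 3 controls was 6.94, so the gap took 0.897 of the whole range of the group, above the critical value of Dixon's test for 4 samples. This was 1 of 16 groups tested over the 4 genes, and chance alone marks about 1 in 20. Without this mouse the Pgr difference from control was -0.25 on day 10, -0.16 on day 14, -0.19 on day 17 and -0.20 over the days together, with a limma adjusted p of 0.372 for the last.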

How the results depend on the processing

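The 4 genes were refitted under 40 settings, 22 of which left out 1 array each. Of 636 differences from control, 615 kept their direction and 21 reversed, all of them Esr1 or Tac2 values with a reported difference under 0.1. Many of the 615 could not have reversed. Settings that change only the error, the threshold, the gene filter or the choice of probe set leave these differences as they are. So does leaving out arrays of a group outside the comparison. The count of kept directions is therefore not a measure of stability. For Esr1 on day 14 the reversed values were -0.023 with array weights, -0.0066 with median centring, -0.0086 with the run of accessions as a term, -0.010 with the pituitary covariate, -0.072 in the last 13 samples and -0.066 without the 4 arrays highest in thalamus markers. Leaving out 1 array gave -0.031 to 0.056. For Tac2, the thalamus covariate gave -0.017, -0.032 and -0.11 on day 14, day 17 and together, leaving out the 4 arrays gave -0.043, -0.032 and -0.12, and the ventromedial covariate gave -0.011 together. Leaving out 1 array gave -0.062 to 0.065 together. Between tumour days, the results that reversed each had a reported difference under 0.1. Array weights gave -0.0069 for Pgr on day 17 against 10 and -0.000813 for Tac2 on day 17 against 14, for which the thalamus covariate gave -0.016 and the meningeal covariate -0.00246. Median centring gave -0.013, and a second quantile normalization and the replicate block -0.012 each, for Gnrh1 on day 14 against 10. The last 13 samples gave -0.068 for Gnrh1, -0.0065 for Esr1 and -0.040 for Pgr on day 17 against 10, and -0.11 for Gnrh1 on day 17 against 14. Leaving out 1 array gave -0.027 to 0.047 for Tac2 on day 17 against 14, -0.015 to 0.027 for Gnrh1 on day 14 against 10, -0.026 to 0.14 for Pgr and -0.0022 to 0.18 for Esr1 on day 17 against 10, and -0.072 to 0.0019 for Pgr on day 17 against 14. The cause of these reversals was not tested.

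The replicate numbers do not pair mice in the labels. Deviations of same-numbered mice of different groups had correlations of -0.19 to 0.35 (28 pairs, median 0.12). Those of mice with different numbers ran from -0.28 to 0.50 (151 pairs, median -0.01). The median was thus higher for the same number, and whether the numbers mark shared handling was not tested. With the replicate number as a block, 1 of 4 genes passed over the days together, Pgr at -0.31 with a limma adjusted p of 0.0468. This was the only setting in which a gene of the 4 passed. The same block gave Greb1 an adjusted p of 0.0502 over the days together, so that its call was lost.

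The number of all genes past the threshold moved more. It was reported as 20, 41, 211 and 121 for days 10, 14 and 17 and the days together. Array weights gave 76, 120, 457 and 552, an adjusted p below 0.1 gave 31, 96, 538 and 347, and the replicate block gave 24, 140, 616 and 342. The thalamus covariate gave 0, 9, 84 and 27, and both the last 13 samples and leaving out 4 arrays gave 0 throughout. A variance trend gave 93, 323 and 235 for days 14, 17 and together, and genes above background 68 and 233 for day 14 and together. The run term gave 184 together, and the meningeal covariate 7 on day 10 and 78 together. Fitting only the groups compared gave 0 on day 14 and 81 on day 17. Leaving out 1 array gave 0 to 25, 2 to 115, 37 to 382 and 2 to 195. The joint test, reported as 63 genes, gave 0 to 153, and between days the counts were 0 to 19.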
